A study of Mus musculus with 6 samples.

Results

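The genes of the constitutive 26S proteasome and of its assembly chaperones were followed in bulk RNA-seq of mouse mesenchymal stromal cells (MSCs). Members were taken from the gene table by symbol: every gene named Psma, Psmb, Psmc, Psmd, Psme, Psmf or Psmg with a number, without the inducible and thymic subunits Psmb8, Psmb9, Psmb10 and Psmb11 and the interferon-induced activator subunits Psme1 and Psme2, plus Pomp and Nfe2l1. This gave 45 of 23420 genes: 8 of the alpha ring, 7 of the beta ring, 6 ATPases, 14 non-ATPase genes and 9 others. The remaining symbol, Psmc3ip, matched the pattern by its spelling only, since it encodes a recombination factor of meiosis and no proteasome component, and it is described apart.

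The cells came from flushed femurs of female C57BL/6 mice aged 6 to 8 weeks and were adherent cells expanded in AMEM with 10% serum. At passage 5 they received a retroviral AP2 construct that carries eGFP. The libraries labelled MSC-TPr (n = 3) had the construct with β1i, β2i and β5t, the catalytic subunits of the thymoproteasome, encoded by Psmb9, Psmb10 and Psmb11, and the libraries labelled Ctl MSC (n = 3) had the empty backbone. Both groups therefore share the donor strain, the culture and a retroviral transduction, the labels name no drug or cytokine, and the labels do not tell whether the 3 libraries of a group are separate cultures, so p-values measure the spread between these libraries.

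The 26S proteasome is the protease that degrades ubiquitinated proteins in the cytosol and nucleus. Its 20S core is a stack of alpha rings, which gate the channel, and beta rings, in which Psmb6, Psmb7 and Psmb5 hold the caspase-like, trypsin-like and chymotrypsin-like active sites. Its 19S cap has a base of ATPases (Psmc) that unfold substrates and a lid of non-ATPase subunits (Psmd) that includes the deubiquitinase Psmd14. Dedicated chaperones (Pomp, Psmg and some Psmd gene products) assemble these parts, and the transcription factor Nfe2l1 is known to raise the transcription of subunit genes when proteasome activity is short. Thymic and inducible catalytic subunits take the places of Psmb6, Psmb7 and Psmb5 in a core that otherwise keeps the same alpha and beta subunits, so the comparison of MSC-TPr with Ctl MSC also asks whether the rest of the proteasome genes differed.

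The depth was 16158756 to 22158887 reads on genes per library. Libraries of 1 label were not alike. The mean log2 CPM (CPM, counts scaled to the size of each library with TMM) of 20 cell division genes was 6.52 in Ctl MSC 1, 6.40 in MSC-TPr 2 and 6.48 in MSC-TPr 3, against 3.19 in Ctl MSC 2, 3.17 in Ctl MSC 3 and 3.20 in MSC-TPr 1. Ctl MSC 1 and MSC-TPr 1 thus stood on the side of the other label. The transduced genes did not follow the labels either: Psmb11 had 1 to 6 reads in every library, and Psmb9 was at 3.38, 0.801 and 0.827 CPM in Ctl MSC 1 to 3 against 0.553, 1.24 and 1.21 CPM in MSC-TPr 1 to 3. Whether the construct's transcripts could be counted on these genes was not tested. The MSC genes Col1a1, Col1a2, Cd44, Eng, Ly6a, Pdgfra and Pdgfrb were present in all libraries, and Thy1 (CD90) had at most 1 read. Nt5e (CD73) was at 11.3, 20.2 and 17.4 CPM in Ctl MSC 1 to 3 and at 2.66, 4.20 and 5.24 CPM in MSC-TPr 1 to 3. Its groups did not overlap, with a log2 fold change of −2.02 (adjusted p = 0.0790 in edgeR's quasi-likelihood test and 2.04e-05 in DESeq2). The 7 haematopoietic and macrophage markers summed to 11.2 to 17.5 CPM by library. Of these, Ptprc, Itgam and Adgre1 (counted under its older symbol Emr1) had at most 2 reads. Csf1r and Lyz2 were at 0.835 CPM or lower, while Cd68 ranged from 0.788 to 14.2 CPM and Cd14 from 3.26 to 13.2 CPM. The 5 endothelial markers summed to 0.785 to 3.32 CPM. The 7 interferon-induced marker genes summed to 571, 193 and 202 CPM in Ctl MSC 1 to 3 and to 51.4, 52.0 and 54.2 CPM in MSC-TPr 1 to 3. The first principal component of all genes (56.9% of the variance) did not follow the labels. It was −40.9, −53.2 and −52.3 in Ctl MSC 1, MSC-TPr 2 and MSC-TPr 3. In Ctl MSC 2, Ctl MSC 3 and MSC-TPr 1 it was 53.5, 51.9 and 40.9. Nt5e and the interferon-induced genes followed all 6 labels, as did the second component (29.5% of the variance). That component was −20.7 or lower in the Ctl MSC libraries and 16.2 or higher in the MSC-TPr libraries. Whether a library carries the wrong label was not tested, and every direction given here follows the labels as they stand. In such bulk RNA, fewer cells of a type and less RNA per cell cannot be told apart.

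Per transcript length, the most abundant members were core and cap subunits, and most assembly factors were near the low end. Levels between genes were compared as CPM per kilobase of the principal annotated transcript, averaged over the 6 libraries, and which transcript the cells used was not tested. The beta ring genes had the highest median, 151 CPM per kilobase, followed by the ATPases with 112, the alpha ring with 91.7, the non-ATPases with 73.9 and the others with 39.7. Psmb3, a structural beta subunit, was the highest member at 186 CPM per kilobase (141 to 241 over the libraries), and next came the ATPase Psmc6 at 177 (142 to 226) and the alpha subunit Psma7 at 173 (126 to 234). These ranges overlap, so their order is not resolved. The catalytic subunits were close to each other, with 156 CPM per kilobase for Psmb5, 158 for Psmb6 and 151 for Psmb7. The 7 genes of dedicated core and base chaperones other than Pomp, which are Psmg1 to Psmg4, Psmd5, Psmd9 and Psmd10, lay between 15.3 CPM per kilobase (Psmd9) and 39.7 (Psmg2). Pomp, the chaperone that is itself the first substrate of the finished core, was higher, at 71.7 CPM per kilobase. The lowest tested component was Psmf1, which encodes the inhibitor PI31, at 9.29 CPM per kilobase (8.74 to 10.9). Psma8, the testis-specific counterpart of Psma7, had 0 reads in every library, which allows up to 3 reads, or 0.135 to 0.186 CPM by library, for counting error only.

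**Figure D1:**
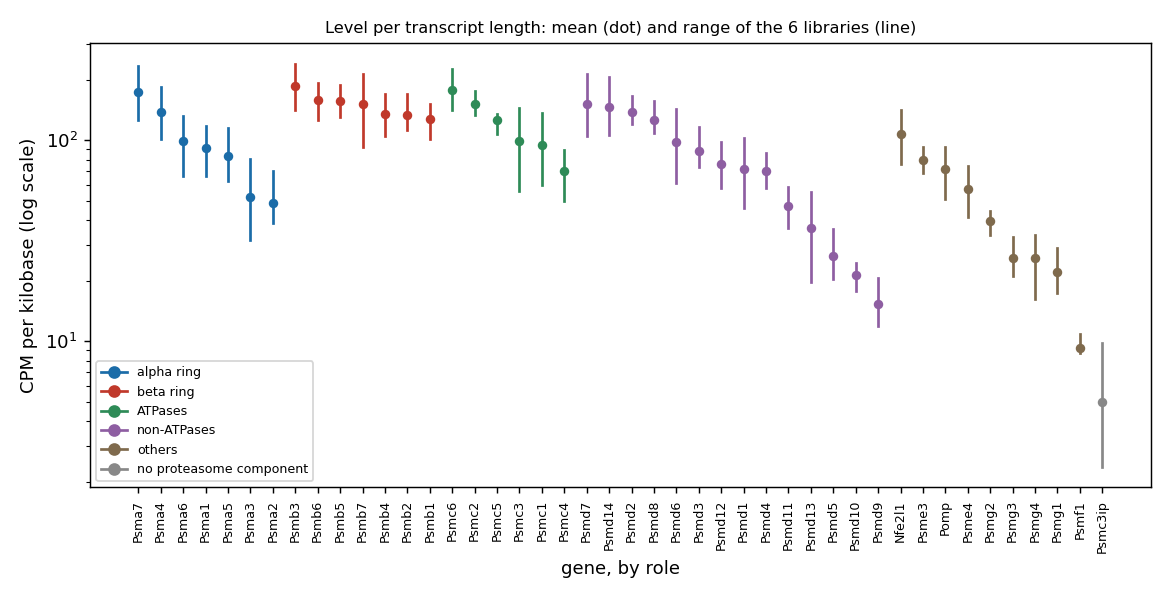
Level of the 44 detected genes per transcript length, in CPM per kilobase on a log axis, with genes ordered by level inside each role; dots are means and lines the range of the 6 libraries. The means of the beta ring genes all lie above 100 CPM per kilobase, and those of Psmf1 and Psmc3ip below 10.

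The question of the comparison was whether the libraries labelled MSC-TPr had other levels of these genes than those labelled Ctl MSC. With all 6 libraries, no member passed the test in either direction, but most members were a little higher in the libraries labelled MSC-TPr. Of the 45 members, 44 passed the filter on low counts and were tested. A member was called when its adjusted p was under 0.05 in edgeR's quasi-likelihood test, adjusted over all 11974 genes tested, and its log2 fold change was 0.5 or more in either direction. By this rule 0 members were called higher, where 0.0251% of all tested genes were, and 0 were called lower, where 0.401% were. The adjusted p of the members ran from 0.181 to 0.990. At an unadjusted p under 0.05, 4 members were higher (6.81% of all genes were) and 1 was lower (8.23% of all genes were). DESeq2 called 2 members higher, Psmc1 and Psmd14, where it called 1.89% of all genes, and 0 lower, where it called 3.39%.

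The fitted log2 fold change, MSC-TPr over Ctl MSC, was positive for 37 of 44 members (84.1%), against 51.1% of all genes. The lean differed between fits, from 29 members positive without MSC-TPr 2 (51.3% of all genes) to 40 without Ctl MSC 1 (52.0%). With the cell division level as a covariate 30 were positive (50.4% of all genes), and without Ctl MSC 2 also 30 (51.0%). The median fold change over the 6 libraries was 0.21 over the members and 0.01 over all genes. By role the median was 0.42 for the ATPases, 0.27 for the alpha ring, 0.27 for the non-ATPases, 0.14 for the beta ring and 0.12 for the others. This median depended on single libraries: it was 0.40 without Ctl MSC 1 and 0.12 without Ctl MSC 2. The summed level of the 44 members was 7321, 5630 and 5951 CPM in Ctl MSC 1 to 3 and 7052, 8280 and 6870 CPM in MSC-TPr 1 to 3, so that Ctl MSC 1 lay within the range of the MSC-TPr libraries. The means were 6301 ± 898 CPM (SD, n = 3) and 7401 ± 767 CPM (SD, n = 3).

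Some members were highest in the libraries with high cell division genes. The 3 highest libraries were Ctl MSC 1, MSC-TPr 2 and MSC-TPr 3 for 19 of the 44 members (43.2%), against 23.0% of all genes, an order counted after the values were seen. They were 5 of 7 alpha ring and 9 of 14 non-ATPase members, 2 of 7 beta ring members, 1 of 6 ATPases, 1 of 9 others, and Psmc3ip. The reverse order, with Ctl MSC 2, Ctl MSC 3 and MSC-TPr 1 on top, held for 2 members (4.55%), Nfe2l1 and Psmg2, against 21.7% of all genes. By the summed level of the 44 members, the highest libraries were MSC-TPr 2 (8280 CPM), Ctl MSC 1 (7321 CPM) and MSC-TPr 1 (7052 CPM). MSC-TPr 3, at 6870 CPM, was thus not above MSC-TPr 1. What part cell division had in these levels was not tested. Values from 2 other fits are given beside the fit of all 6 libraries.

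**Figure D2:**
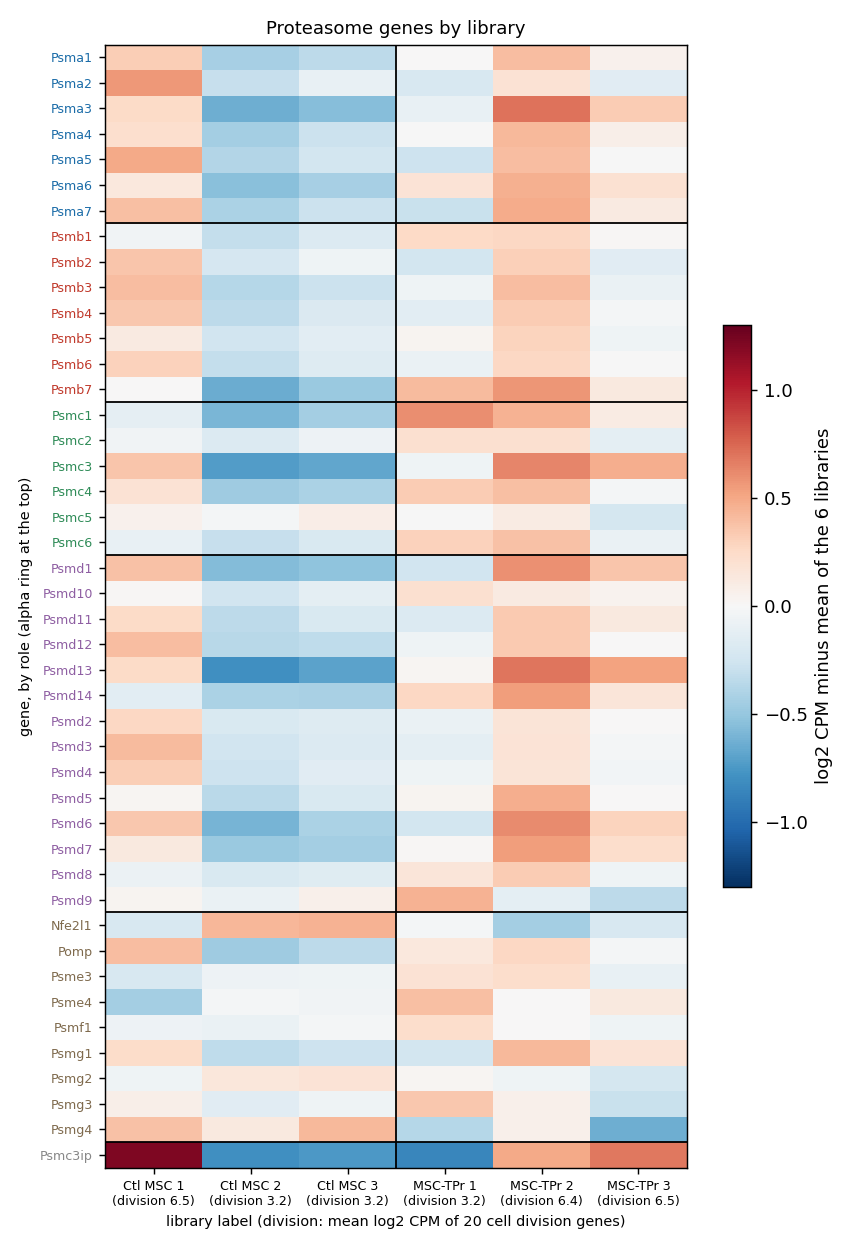
Log2 CPM of each tested gene in each library minus its mean over the 6 libraries, in rows by role; the number under each library is its mean log2 CPM of the 20 cell division genes. Ctl MSC 2 and Ctl MSC 3 are low for most subunit rows, Ctl MSC 1 and MSC-TPr 2 are high, and Nfe2l1 runs the other way.

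In the first of these fits, both libraries numbered 1 were left out. In the remaining 4 libraries the label and the cell division level go together and cannot be told apart. There, 20 of 44 members (45.5%) were called higher in MSC-TPr, where 20.6% of all genes were, and 1 member, Nfe2l1, was called lower, where 19.4% of all genes were. The fold change was positive for 38 members (86.4%, against 49.9% of all genes), and its median was 0.47. Those called higher were 6 of 7 alpha ring genes (all but Psma2), 7 of 14 non-ATPases (Psmd1, Psmd6, Psmd7, Psmd11, Psmd12, Psmd13 and Psmd14), 3 of 6 ATPases (Psmc1, Psmc3 and Psmc4), 1 of 7 beta ring genes (Psmb7), Pomp, Psmg1 and Psmc3ip.

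In the second fit, all 6 libraries entered with the cell division level as a covariate. It called 4 members higher (9.09%, where 4.75% of all genes were called higher): Psmb7, Psmc1, Psmd13 and Psmd14. It called 0 lower, where 7.39% of all genes were called lower. At an unadjusted p under 0.05, 11 members were higher (15.4% of all genes were) and 1 was lower (16.3% of all genes were), and the median of the members was 0.15. The common dispersion, which measures the spread within groups, was 0.124 with the label alone and 0.0250 with the covariate. The levels of all MSC-TPr libraries lay above those of all Ctl MSC libraries for 9 members (20.5%), against 10.6% of all genes: Psma6, Psmb1, Psmb7, Psmc1, Psmc6, Psmd8, Psmd10, Psmd14 and Psme4. They lay below for 1 member (2.27%), Psmg4, against 12.0% of all genes.

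**Figure D3:**
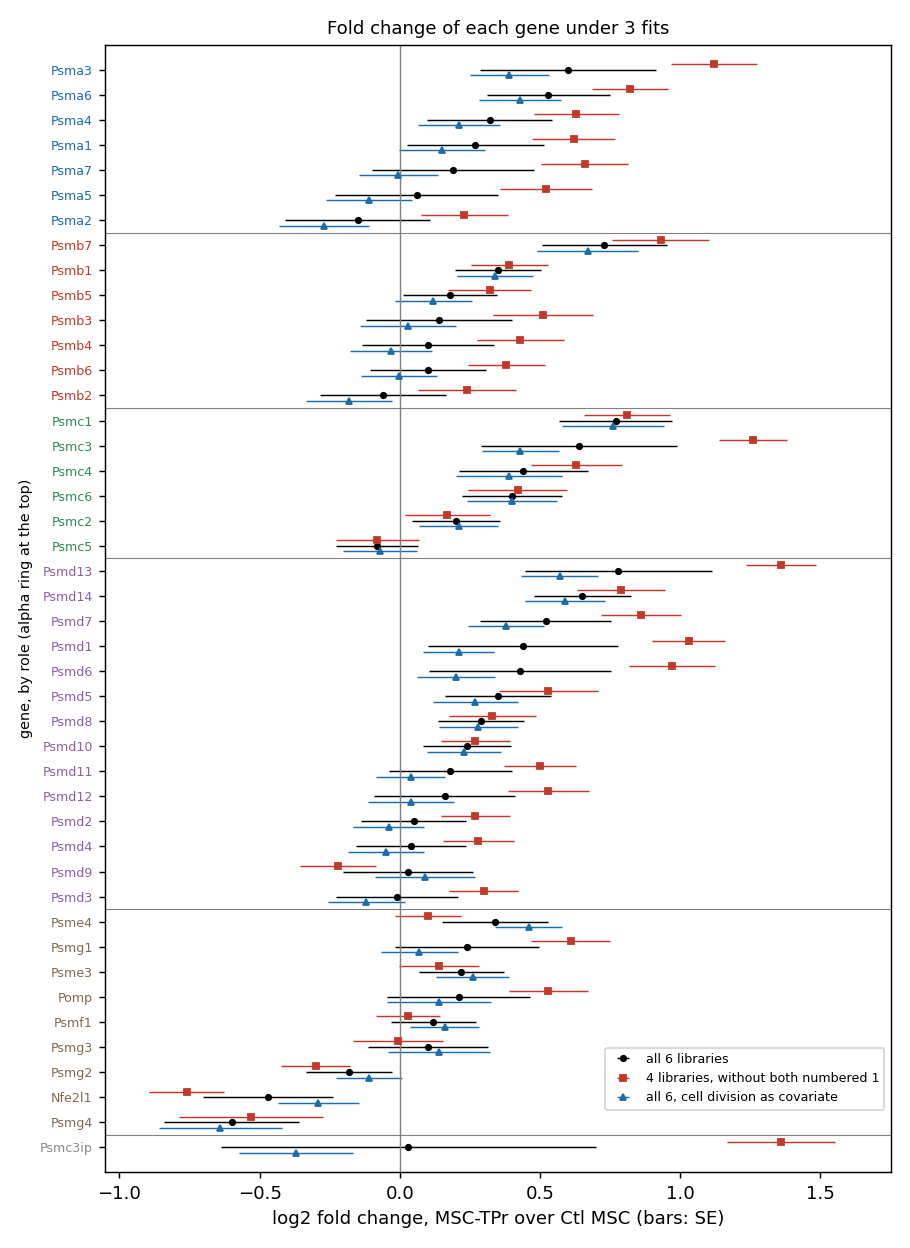
Log2 fold change, MSC-TPr over Ctl MSC, of each tested gene with its SE, by role, under the fit of all 6 libraries, the fit of 4 libraries and the fit with the cell division covariate. Psmc1 has nearly the same value under the 3 fits, and Psma3, Psmc3 and Psmd13 are larger in 4 libraries than in the fit of 6.

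The alpha ring is the outer ring of the core, whose subunit tails close the channel and on which the caps dock. Its 7 tested genes summed to 1144, 662 and 728 CPM in Ctl MSC 1 to 3 and to 841, 1228 and 964 CPM in MSC-TPr 1 to 3. Ctl MSC 1 was thus the second highest library and the groups overlapped. Psma3 had the highest fold change of the ring, with 167, 90.8 and 95.9 CPM in Ctl MSC 1 to 3 and 131, 229 and 177 CPM in MSC-TPr 1 to 3. The groups overlapped through Ctl MSC 1 and MSC-TPr 1. Its log2 fold change was 0.60 (SE 0.314, adjusted p = 0.427 in edgeR's quasi-likelihood test over the 6 libraries), 1.12 in the 4 libraries (adjusted p = 0.00277) and 0.39 with the covariate (adjusted p = 0.103). Psma6 was the only alpha ring gene whose groups did not overlap, at 110, 68.9 and 74.3 CPM in Ctl MSC against 113, 138 and 115 CPM in MSC-TPr, and Ctl MSC 1 was just under MSC-TPr 1. It had a log2 fold change of 0.53 (SE 0.219, adjusted p = 0.329). At the other end, Psma2 was highest in Ctl MSC 1, with 204 CPM, and ranged from 112 to 158 CPM in the other 5 libraries. Its log2 fold change of −0.15 (SE 0.259, adjusted p = 0.834) turned to 0.23 in the 4 libraries, and that of Psma5, 0.06 (SE 0.291, adjusted p = 0.940), turned to −0.11 with the covariate. Psma1, Psma4 and Psma7 lay between, with log2 fold changes of 0.27, 0.32 and 0.19.

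The beta ring holds the active sites that the transduced subunits would replace. Its 7 genes summed to 1218, 834 and 917 CPM in Ctl MSC 1 to 3 and to 1122, 1359 and 1053 CPM in MSC-TPr 1 to 3, and the groups overlapped. Of the catalytic genes, only Psmb7 had groups that did not overlap. Psmb7, which carries the trypsin-like site (chr2:38588036-38644087, mm10), was at 168, 107 and 120 CPM in Ctl MSC 1 to 3 and at 223, 248 and 182 CPM in MSC-TPr 1 to 3. Ctl MSC 1 was the highest control library, and its distance to MSC-TPr 3 was small. The log2 fold change was 0.73 (SE 0.223, adjusted p = 0.220), 0.93 in the 4 libraries (adjusted p = 0.00794) and 0.67 with the covariate (adjusted p = 0.0486). Exons of Psmb7 overlap those of Nek6 on the other strand by 405 bases. The annotation also names 1 pseudogene after Psmb7, 1 after Psmb5 and 2 after Psmb6. The strand setting of the counting is not given in the sources used here. How reads from such stretches were counted is therefore not known.

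Psmb5, which carries the chymotrypsin-like site, was at 150, 117 and 126 CPM in Ctl MSC 1 to 3 and at 143, 170 and 134 CPM in MSC-TPr 1 to 3. The groups overlapped, with Ctl MSC 1 above MSC-TPr 1 and MSC-TPr 3. The log2 fold change was 0.18 (SE 0.167, adjusted p = 0.664). Psmb6, which carries the caspase-like site, was at 154, 101 and 111 CPM in Ctl MSC, against 118, 150 and 124 CPM in MSC-TPr, with Ctl MSC 1 the highest library of all. It differed by a log2 fold change of 0.10 (SE 0.207, adjusted p = 0.858), and it was −0.0034 with the covariate. Their inducible counterparts were at lower levels: Psmb10 ranged from 8.38 to 27.8 CPM, Psmb8 from 2.60 to 13.8 CPM and Psmb9 from 0.553 to 3.38 CPM, all highest in Ctl MSC 1. The log2 fold change of Psmb10 was −0.11 over the 6 libraries (adjusted p = 0.939 in edgeR's quasi-likelihood test). In the same test it was 0.92 in the 4 libraries (adjusted p = 0.00547), where 20.6% of all genes were called higher. With the covariate it was −0.37 (adjusted p = 0.249). Of the structural genes, Psmb1 had groups that did not overlap, with 215, 180 and 197 CPM in Ctl MSC, against 266, 268 and 224 CPM in MSC-TPr, and a log2 fold change of 0.35 (SE 0.153, adjusted p = 0.338). Psmb2, with the lowest fold change of the ring, was highest in Ctl MSC 1, with 146 CPM, and its log2 fold change was −0.06 (SE 0.226, adjusted p = 0.930). Psmb3 and Psmb4 had log2 fold changes of 0.14 and 0.10, with adjusted p values of 0.838 and 0.879.

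Nfe2l1 binds antioxidant response elements with small Maf partners, and the letters of the core of such elements occur in the promoter window of some members. RefSeq promoter windows (GRCm38.p6, the assembly of mm10) run from 250 bases before to 50 after the transcript start. A window was found for 37 of the 45 members, 43 windows in all. The core TGACNNNGC, searched on both strands, was in 6 of 43 windows (14.0%), against 12.4% of 32851 windows of all genes, and the CCAAT box, also on both strands, was in 17 of 43 (39.5%), against 37.4%. Neither pattern contains the other. The shares of the members were close to those of all promoters. The matches in the active site genes Psmb5 and Psmb6, in Psmc6, the ATPase with the highest level per length, and in the base chaperone gene Psmd9 are printed as examples of where the letters lie. Each is on the strand of its gene, 5′ to 3′, with the core in capitals and up to 20 bases on either side.
Psmb5 (chr14:54618014-54618062, minus strand): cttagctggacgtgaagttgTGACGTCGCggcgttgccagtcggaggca
Psmb6 (chr11:70525328-70525356, plus strand): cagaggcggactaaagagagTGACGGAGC
Psmc6 (chr14:45329577-45329625, plus strand): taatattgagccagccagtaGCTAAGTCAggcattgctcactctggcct
Psmd9 (chr5:123228139-123228187, plus strand): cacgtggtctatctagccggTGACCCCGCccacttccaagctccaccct
The core starts 47 bases before the transcript start in Psmb5, 9 in Psmb6 and 31 in Psmd9. In Psmc6 it lies 227 bases before the start and on the opposite strand, so the capitals show its reverse complement. Psmd12 and Psme4 held the other matches. The 4 genes shown had log2 fold changes of 0.18, 0.10, 0.40 and 0.03 over the 6 libraries, with SEs of 0.167, 0.207, 0.178 and 0.231. Their adjusted p ran from 0.348 to 0.969 in edgeR's quasi-likelihood test. Whether these values differ from each other was not tested, and whether a factor binds at these letters was not measured.

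The ATPases form the ring of the base that unfolds substrates and threads them into the core. Their 6 genes had the highest median fold change of the roles, and their summed level was 1238, 976 and 1049 CPM in Ctl MSC 1 to 3 and 1445, 1557 and 1217 CPM in MSC-TPr 1 to 3. MSC-TPr 3 was just below Ctl MSC 1, so the groups overlapped. Psmc1 (chr12:100110154-100123405, mm10) had the smallest p of all members. It was at 133, 95.2 and 106 CPM in Ctl MSC 1 to 3 and at 219, 198 and 155 CPM in MSC-TPr 1 to 3. All MSC-TPr libraries were above all Ctl MSC libraries, and MSC-TPr 1, whose cell division level was low, was the highest. The fitted log2 fold change was 0.77 (SE 0.201, adjusted p = 0.181), 0.81 in the 4 libraries (adjusted p = 0.00834) and 0.76 with the covariate (adjusted p = 0.0335), and DESeq2 gave 0.79 (adjusted p = 0.0365). Leaving out each library in turn gave log2 fold changes from 0.66 to 0.92 and adjusted p from 0.104 to 0.588.

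Psmc3 followed the cell division level more closely, at 194, 91.5 and 94.7 CPM in Ctl MSC 1 to 3 and at 146, 235 and 210 CPM in MSC-TPr 1 to 3. Ctl MSC 1 was above MSC-TPr 1, and the groups overlapped. Its log2 fold change of 0.64 (SE 0.349, adjusted p = 0.447) became 1.26 in the 4 libraries (adjusted p = 0.000827) and 0.43 with the covariate (adjusted p = 0.0744). Exons of Psmc3 overlap those of Slc39a13 on the other strand by 215 bases. Psmc6 was at 365, 317 and 339 CPM in Ctl MSC, against 479, 506 and 368 CPM in MSC-TPr, with groups that did not overlap only because MSC-TPr 3 exceeded Ctl MSC 1 by a small margin. Its log2 fold change was 0.40 (SE 0.178, adjusted p = 0.348). Psmc4 lay at 0.44 (adjusted p = 0.427) with overlapping groups. Psmc2 and Psmc5 had the lowest values of the ring, 0.20 (SE 0.157, adjusted p = 0.605) and −0.08 (SE 0.146, adjusted p = 0.846). Psmc5 was the flattest ATPase, with 141 to 178 CPM over the 6 libraries.

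The non-ATPase genes encode the lid, the scaffolds of the base, a ubiquitin receptor and 3 base chaperones. The 14 genes summed to 2546, 1724 and 1805 CPM in Ctl MSC 1 to 3 and to 2177, 2877 and 2379 CPM in MSC-TPr 1 to 3, with Ctl MSC 1 second highest. Psmd14 (chr2:61711694-61800376, mm10), the lid protease that removes ubiquitin chains from substrates, was at 199, 164 and 163 CPM in Ctl MSC 1 to 3 and at 263, 319 and 243 CPM in MSC-TPr 1 to 3. The groups did not overlap, and MSC-TPr 3 was well above the highest control library. On the log2 scale the fold change was 0.65 (SE 0.173, adjusted p = 0.183), 0.79 in the 4 libraries (adjusted p = 0.00982) and 0.59 with the covariate (adjusted p = 0.0344), and DESeq2 gave 0.66 (adjusted p = 0.0365). Over the fits without 1 library it was 0.54 to 0.76, with adjusted p from 0.117 to 0.630.

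Psmd13, a structural lid subunit, had the largest fold change of all members over the 6 libraries and 1 of the widest spreads. It was at 80.8, 39.1 and 42.1 CPM in Ctl MSC 1 to 3 and at 69.3, 111 and 97.5 CPM in MSC-TPr 1 to 3. Ctl MSC 1 was above MSC-TPr 1, and Ctl MSC 2 and 3 were the lowest. The log2 fold change was 0.78 (SE 0.333, adjusted p = 0.338), 1.36 in the 4 libraries (adjusted p = 0.000733) and 0.57 with the covariate (adjusted p = 0.0334). Its exons overlap those of Sirt3 on the other strand by 342 bases. Psmd8, another lid subunit, was at 183, 167 and 172 CPM in Ctl MSC, against 215, 241 and 184 CPM in MSC-TPr, so MSC-TPr 3 and Ctl MSC 1 nearly met. It had a log2 fold change of 0.29 (SE 0.154, adjusted p = 0.428). Psmd3, a scaffold subunit of the lid, was highest in Ctl MSC 1, with 249 CPM against 158 to 212 CPM in the other 5 libraries, and had a log2 fold change of −0.0092 (SE 0.218, adjusted p = 0.990) that was 0.30 in the 4 libraries. The lid genes Psmd6, Psmd7, Psmd11 and Psmd12 had log2 fold changes of 0.43, 0.52, 0.18 and 0.16 over the 6 libraries, and 0.97, 0.86, 0.50 and 0.53 in the 4 libraries. Psmd1 and Psmd2, which encode the large scaffolds of the base, had log2 fold changes of 0.44 and 0.05 over the 6 libraries and of 1.03 and 0.27 in the 4 libraries. This difference between the scaffolds was not tested. Exons of Psmd1 share 301 bases with Gm21972 on the same strand and 252 bases with Htr2b on the other strand. No exon overlap was found for Psmd2. The ubiquitin receptor gene Psmd4 was at 0.04 (adjusted p = 0.945).

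**Figure D4:**
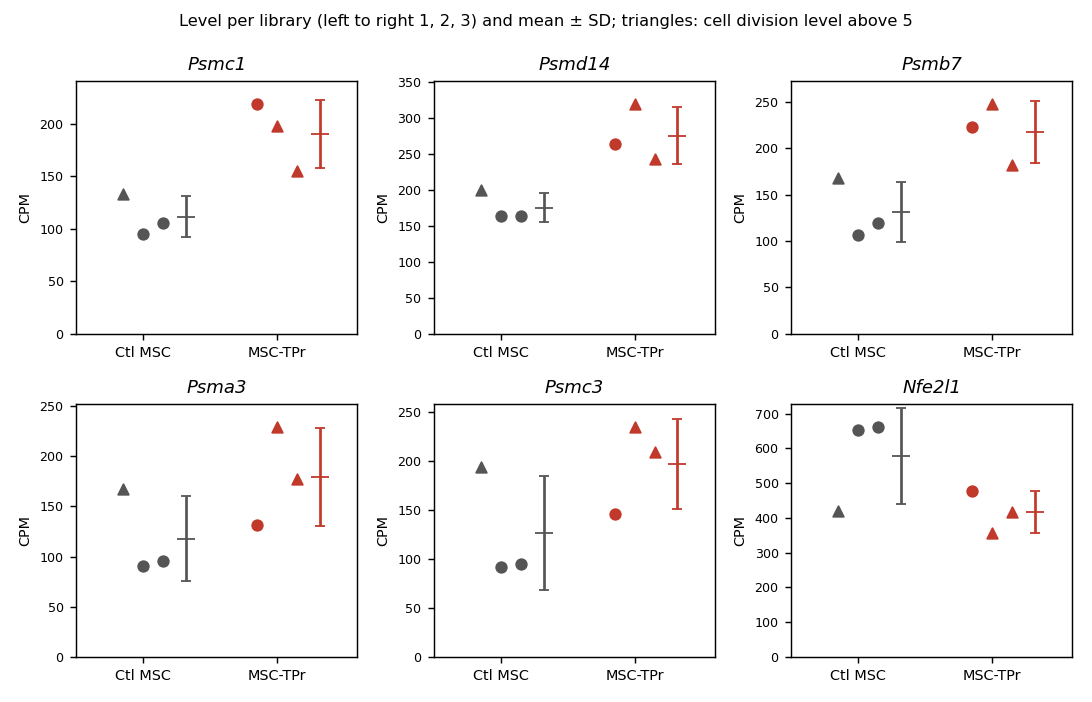
CPM of 6 genes in each library (points, left to right 1, 2 and 3) with group mean ± SD (n = 3); triangles mark libraries with a mean log2 CPM of cell division genes above 5. For Psmc1, Psmd14 and Psmb7 all MSC-TPr points lie above all Ctl MSC points, and for Psma3, Psmc3 and Nfe2l1 the groups overlap.

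Over the 8 genes of assembly chaperones the log2 fold change ran from −0.60 (Psmg4) to 0.35 (Psmd5) in the 6 libraries, and 2 of them, Pomp and Psmg1, were called higher in the 4 libraries, where 20.6% of all genes were. Psmd5, Psmd9 and Psmd10 encode the 3 base chaperones. Psmd10, known also as gankyrin, was at 30.5, 25.5 and 27.8 CPM in Ctl MSC 1 to 3 and at 35.0, 32.8 and 31.2 CPM in MSC-TPr 1 to 3. The groups did not overlap, but the gap between Ctl MSC 1 and MSC-TPr 3 was small, and the log2 fold change was 0.24 (SE 0.157, adjusted p = 0.523). The fold change of Psmd5 had an adjusted p of 0.442. Psmd9 was highest in MSC-TPr 1, with 53.6 CPM, and lowest in MSC-TPr 3, with 31.0 CPM, so its lowest and highest libraries had the same label. It differed by a log2 fold change of 0.03 (SE 0.231, adjusted p = 0.969) and −0.22 in the 4 libraries, and a lincRNA gene, Gm26745, covers 1849 bases of its exons on the other strand.

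Psmg1 and Psmg2 pair to start the alpha ring, as do Psmg3 and Psmg4, and Pomp then brings in the beta subunits. Psmg4 was at 18.2, 15.3 and 18.7 CPM in Ctl MSC 1 to 3 and at 10.8, 14.7 and 8.99 CPM in MSC-TPr 1 to 3. It was the only member for which all MSC-TPr libraries were below all Ctl MSC libraries, and MSC-TPr 2 was close to Ctl MSC 2. This gave a log2 fold change of −0.60 (SE 0.241, adjusted p = 0.316), −0.53 in the 4 libraries (adjusted p = 0.139) and −0.64 with the covariate (adjusted p = 0.0896), so it was negative under the 3 fits and called in none of them. Its partner Psmg3 was at 24.0, 20.7 and 22.1 CPM in Ctl MSC, against 29.2, 23.9 and 18.6 CPM in MSC-TPr, with MSC-TPr 3 the lowest and MSC-TPr 1 the highest library. The fitted log2 fold change was 0.10 (SE 0.215, adjusted p = 0.859), and the Psmg3 exons share 280 bases with Gm26938 on the same strand.

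Psmg1 was at 26.8, 18.1 and 18.9 CPM in Ctl MSC 1 to 3 and at 19.2, 30.5 and 25.7 CPM in MSC-TPr 1 to 3. Its 3 highest libraries were those with high cell division genes. On the log2 scale the fold change was 0.24 (SE 0.256, adjusted p = 0.709) and 0.61 in the 4 libraries (adjusted p = 0.0163). Psmg2, its partner, had the reverse order, at 40.3, 46.2 and 47.2 CPM in Ctl MSC, against 42.6, 40.3 and 35.6 CPM in MSC-TPr, and a log2 fold change of −0.18 (SE 0.153, adjusted p = 0.640). Pomp was at 146, 80.4 and 87.7 CPM in Ctl MSC, against 122, 134 and 109 CPM in MSC-TPr, with Ctl MSC 1 the highest library. Its log2 fold change was 0.21 (SE 0.256, adjusted p = 0.746), 0.53 in the 4 libraries (adjusted p = 0.0247) and 0.14 with the covariate (adjusted p = 0.653).

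None of the 3 genes for regulators that bind the core without the 19S cap was called in the 3 fits. Of all genes, 0.0251% were called higher and 0.401% lower over the 6 libraries. The shares were 20.6% and 19.4% in the 4 libraries, and 4.75% and 7.39% with the covariate. A count over 3 genes is too small to set against these shares. Psme4 encodes PA200, an activator that opens the alpha ring independently of ATP. It was at 270, 361 and 356 CPM in Ctl MSC 1 to 3 and at 481, 368 and 400 CPM in MSC-TPr 1 to 3. The groups did not overlap, by the small step from Ctl MSC 2 to MSC-TPr 2, and Ctl MSC 1 was the lowest library and MSC-TPr 1 the highest. This gave a log2 fold change of 0.34 (SE 0.190, adjusted p = 0.457) and 0.10 in the 4 libraries (adjusted p = 0.503). With the covariate it was 0.46 (SE 0.120, adjusted p = 0.0423), which passed on p but stayed under the fold of the call. Psme3, which encodes the nuclear activator PA28γ, was at 183, 203 and 203 CPM in Ctl MSC, against 241, 247 and 198 CPM in MSC-TPr. MSC-TPr 3 lay within the control range, and the log2 fold change was 0.22 (SE 0.152, adjusted p = 0.543). Psmf1 was nearly level, with 33.3 to 34.6 CPM in Ctl MSC, against 41.4, 35.4 and 33.9 CPM in MSC-TPr, and a log2 fold change of 0.12 (SE 0.152, adjusted p = 0.757).

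Nfe2l1 (chr11:96817414-96829968, mm10) was at 420, 653 and 661 CPM in Ctl MSC 1 to 3 and at 477, 356 and 418 CPM in MSC-TPr 1 to 3. It was highest in Ctl MSC 2 and 3, next in MSC-TPr 1, and lower in Ctl MSC 1, MSC-TPr 2 and MSC-TPr 3, the reverse of the order counted for 19 members. The groups overlapped, since Ctl MSC 1 lay between MSC-TPr 2 and MSC-TPr 1. The log2 fold change was −0.47 (SE 0.232, adjusted p = 0.400) over the 6 libraries, −0.76 in the 4 libraries (SE 0.133, adjusted p = 0.00612) and −0.29 with the covariate (SE 0.144, adjusted p = 0.205). The RNA level does not report the activity of this factor, which is made as a membrane protein of the endoplasmic reticulum and released by cutting.

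Psmc3ip, outside the proteasome, had the widest spread of the symbols taken, with 12.7, 3.15 and 3.25 CPM in Ctl MSC 1 to 3 and 3.04, 7.69 and 8.76 CPM in MSC-TPr 1 to 3. Its 3 highest libraries were again those with high cell division genes, and the log2 fold change was 0.03 (SE 0.668, adjusted p = 0.988) over the 6 libraries and 1.36 (SE 0.192, adjusted p = 0.00300) in the 4. Without Psmc3ip the counts were 43 tested components, 36 of them positive over the 6 libraries with a median of 0.21, and 19 called higher in the 4 libraries.

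The wider pathway was taken from a list of 34 genes for receptors, shuttles and deubiquitinases that bind the proteasome, the processing of Nfe2l1, its relatives and Maf partners, and ubiquitin. Of these, 33 were in the table and 32 were tested. None was called over the 6 libraries by edgeR's quasi-likelihood test, where 0.0251% of all genes were called higher and 0.401% lower, and DESeq2 called none. At an unadjusted p under 0.05, 1 was higher (6.81% of all genes were) and 1 was lower (8.23% of all genes were), AI314180, the mouse symbol for the proteasome scaffold Ecm29. The fold change was positive for 15 and negative for 17, with a median of −0.03, against 0.01 over all genes and 0.21 over the proteasome members. In the 4 libraries 4 were called higher and 8 lower, where 20.6% and 19.4% of all genes were. The higher included the proteasome-bound Adrm1, Uchl5 and Usp14, and the lower were Zfand5, Zfand2a, Akirin2, Ddi2, Sel1l, Mafg, Bach1 and Ubb. Ddi2 encodes the protease that releases Nfe2l1, and Akirin2 a factor that carries proteasomes into the nucleus.

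Among the genes of the list with the highest fold changes over the 6 libraries were the ubiquitin fusion gene Rps27a, at 0.46 (SE 0.215, adjusted p = 0.381), and Maff, at 0.45 (SE 0.377, adjusted p = 0.626). Maff, a small Maf partner, was the only gene of the list called with the covariate, where 4.75% of all genes were called higher and 7.39% lower, at 0.75 (adjusted p = 0.0243). The 3 lowest were Bach1, a repressor at Maf-bound elements, at −0.77 (SE 0.430, adjusted p = 0.453), Mafg, at −0.55 (SE 0.328, adjusted p = 0.490), and Sel1l of the endoplasmic reticulum ubiquitin ligase, at −0.55 (SE 0.417, adjusted p = 0.579). Bach1 was at 36.0, 88.5 and 83.9 CPM in Ctl MSC, against 57.3, 24.8 and 39.9 CPM in MSC-TPr, with Ctl MSC 2 and 3 highest, as for Nfe2l1.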

How the data were processed

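Bulk RNA-seq libraries of Ctl MSC (n = 3) and MSC-TPr (n = 3) were compared. The authors sequenced stranded polyA libraries, used mm10 for alignment and Htseq-count for gene counts, and the deposited values are these raw counts. The submitters' processing notes name CASAVA 1.8.2, Trimmomatic 0.35 and TopHat2 2.1.0. The strand setting of the counting is not given in the sources used here. The table has 23420 gene rows and 5 summary rows, which were left out, and 79.2 to 86.2% of the reads were on genes. A count of 3 reads is 0.135 to 0.186 CPM.

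The members, gene lists and tests were chosen with earlier results of these data known. The main fit was edgeR's quasi-likelihood test (version 4.0.16 in R 4.3.3) on group alone, after filterByExpr and TMM scaling, with p-values adjusted by Benjamini-Hochberg over all 11974 genes tested. SEs were derived from F and the fold change and are not independent of the test. Alternatives were DESeq2 1.42.0, RLE and upper quartile scaling, 2 other filters, no minimum fold, leaving out each library or both numbered 1, the replicate number as a block, and the cell division level as a covariate. The steps were tested on simulated counts.

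Lengths and exon overlaps came from GENCODE vM21. Named members were the catalytic beta genes, the chaperone and regulator genes outside the Psmd group, members called or with groups that did not overlap, and the 2 highest and 2 lowest fold changes in each role. The other members were named after their values were seen. Of the wider list, the genes called and the 3 highest and 3 lowest were named by rule, the others in its counts after their values were seen, and 1 gene is not reported here. Same-group libraries differed beyond sampling noise: a chi-square per gene of 4.76 for Ctl MSC 2 and 3 was the smallest, where about 1 would be noise. Lists were described by counts and medians, with no set test. No protein sequences were used here.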

Additional observations from a re-analysis of the deposited data

How the results depend on the processing

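The number of members called over the 6 libraries was 0 higher and 0 lower. It was the same under RLE and upper quartile scaling, both other filters, no minimum fold, and the omission of Ctl MSC 1 or MSC-TPr 1. The scaling, filter and omission fits called only 2 to 11 of all genes higher and 29 to 105 lower. A count of 0 among 44 members therefore tells little about stability. The number was also 0 with the replicate block and without Ctl MSC 2, Ctl MSC 3 or MSC-TPr 3, fits that called 0 of all genes. The fit without MSC-TPr 2 called 0 members and 1 of all genes, so these fits say nothing about stability. With DESeq2 the number was 2 higher, where 1.89% of all genes were called higher and 3.39% lower. The cell division covariate gave 4 higher, where 4.75% of all genes were called higher and 7.39% lower. Without both libraries numbered 1 the number was 20 higher and 1 lower, where 20.6% and 19.4% of all genes were. There the label and the cell division level cannot be told apart. The median fold change of 0.21 was 0.47 in those 4 libraries and 0.12 to 0.40 when 1 library was left out. It lay between 0.15 and 0.23 under all the other settings, with the replicate block included.

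The correlations of same-numbered deviations were −0.755, −0.575 and −0.590, so no pairing by number was seen. The deviations were taken from the mean of each group, so these values are not independent. Ctl MSC 1 and MSC-TPr 1 lay on opposite sides of the first principal component, and wrong labels were not tested. The correlations therefore cannot decide whether the numbers pair the libraries. With the replicate block 0 of 11974 genes were called in either direction, members included, the median was 0.23, and Psmd3 and Psmd9 took the values 0.02 and −0.01.

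For the 30 named members, 420 values from 14 settings comprised 371 with the direction and side of the threshold unchanged, 18 that passed it, and 31 with the sign turned. The sign turned in 9 members whose log2 fold change over the 6 libraries was at most 0.15 in size. Without both libraries numbered 1 the values were 0.23 for Psma2, 0.24 for Psmb2, 0.30 for Psmd3, −0.22 for Psmd9 and −0.0065 for Psmg3. With the covariate they were −0.11 for Psma5, −0.03 for Psmb4 and −0.0034 for Psmb6. Psmd3 was 0.0028 with DESeq2 and 0.0039 without a filter, and Psmd9 was −0.01 with upper quartile scaling. With 1 library left out, the values ran from −0.31 to 0.16 for Psma2, −0.13 to 0.38 for Psma5, −0.24 to 0.13 for Psmb2, −0.04 to 0.34 for Psmb4, −0.02 to 0.31 for Psmb6, −0.15 to 0.02 for Psmc5, −0.13 to 0.23 for Psmd3, −0.23 to 0.19 for Psmd9 and −0.06 to 0.26 for Psmg3. The cause of these turns was not tested.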
